A study of Mus musculus with 8 samples.

Results

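The ERBB receptors and the EGF-family ligands that activate them were followed in mpkCCD cells given tolvaptan, an antagonist of the vasopressin V2 receptor. The 10 members were chosen by gene symbol from the 55414 genes of the deposited table: the 4 receptors Egfr, Erbb2, Erbb3 and Erbb4 and the 6 ligands Btc, Tgfa, Hbegf, Areg, Ereg and Epgn. Each symbol matched 1 row. Cells were grown with 0.1 nM dDAVP, a V2 receptor agonist, which stayed on while 50 nM tolvaptan (4 libraries, called tolvaptan here) or its vehicle (4 libraries, called dDAVP alone) was added for 24 h. All libraries come from mpkCCD, an immortalised line from cortical collecting ducts of mice that carried a SV-PK/Tag transgene, and the experiments used 1 subclone of it selected for high aquaporin-2. Growth medium contained EGF and dexamethasone. A minimal medium without growth factors is described for the day before an experiment, and the methods do not say separately whether the cells for RNA-seq were kept in it. The sample records do not say whether each library was a separate culture, so the spread behind each p-value may be technical.

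EGF-family ligands are made as transmembrane precursors, and metalloproteases of the ADAM family cut them from the cell surface. A ligand bound to EGFR or ERBB4 brings receptors together in pairs, and the paired kinases phosphorylate each other and start signaling to RAS and ERK, to PI3-kinase and to phospholipase C. ERBB2 has no known ligand of its own and ERBB3 has little kinase activity, so both work mainly as partners in mixed pairs. In kidney epithelium EGFR signaling is known for its roles in proliferation, repair after injury and magnesium and sodium handling.

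Values are TPM, in which reads are divided by transcript length and each library is then brought to 1 common total. Levels of different genes can therefore be set side by side, while the read depth behind them is unknown. Comparisons used limma on log2(TPM + 1), with Benjamini-Hochberg adjustment over every gene of the fit. The 9943 genes with more than 10 TPM in at least 1 library were tested first, and all 39780 genes above 0 TPM were tested in a second fit so that low members were included. Aqp2, the water channel that vasopressin induces, had a mean of 3050 TPM under dDAVP alone and fell to 272 TPM in the tolvaptan libraries (limma adjusted p = 3.11e-08). Of 13 principal cell markers, 10 were over 10 TPM, and of these 6 fell and 2 rose with tolvaptan. Among all genes over 10 TPM, 6.10% fell and 10% rose. The summed level of the 13 markers was 11619 to 12308 TPM with dDAVP alone and 6224 to 7701 TPM with tolvaptan. Most of that sum was Aqp2 and the keratins Krt8, Krt18 and Krt19, which all fell. Gata3 and Hsd11b2 did not pass (limma adjusted p = 0.309 and 0.974). The sodium channel subunits Scnn1a and Scnn1g were the ones that rose, while Scnn1b stayed under 1 TPM in every library. All 5 thick limb and distal tubule markers, all 5 fibroblast markers and all 4 endothelial markers were under 1 TPM, as were 5 of 6 intercalated cell markers (Atp6v1b1 was the exception), 3 of 4 leukocyte markers (not Cd68) and 4 of 5 proximal tubule markers. The exception there, Lrp2, rose from 8.17 to 11.2 TPM (limma adjusted p = 0.00633 in the fit of every expressed gene). The part of these markers in the results on the ligands and receptors was not tested.

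Of the 10 members, 6 were over 10 TPM and could be tested there, and 4 changed: Btc and Egfr fell, and Tgfa and Hbegf rose. Among all genes tested, 16.1% passed an adjusted p of 0.05, 6.10% lower and 10% higher with tolvaptan (607 and 994 genes). This split turned with scaling, to 825 lower and 576 higher with the libraries set to a common median and 680 and 612 after quantile normalization. The background also moved with single libraries. It was 414 lower and 553 higher without dDAVP replicate 1, 413 and 568 without dDAVP replicate 2, 415 and 560 without dDAVP replicate 3 and 428 and 463 without dDAVP replicate 4. Without tolvaptan replicate 2 it was 426 and 532, and without tolvaptan replicate 4 it was 859 and 1495. The median log2 fold change was -0.04 over the 6 members and 0.05 over all genes. The libraries of one group lay wholly apart from those of the other in 4 of the 6 members and in 23.1% of all genes tested. These were the same 4 that were called, from the same values, so the gap is no separate evidence. With every expressed gene tested, 3 of the 10 passed (Btc and Egfr lower, Tgfa higher), against 2.31% of all genes, 1.06% lower and 1.25% higher. The number of members that passed there was 1 in the fits without dDAVP replicate 1, 2 or 3 or without tolvaptan replicate 3, and 0 with replicate number as a block. Groups did not overlap for 4 of the 10 members and for 9.55% of the expressed genes. In bulk RNA, fewer cells with a transcript and less of it per cell cannot be told apart.

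**Figure D1:**
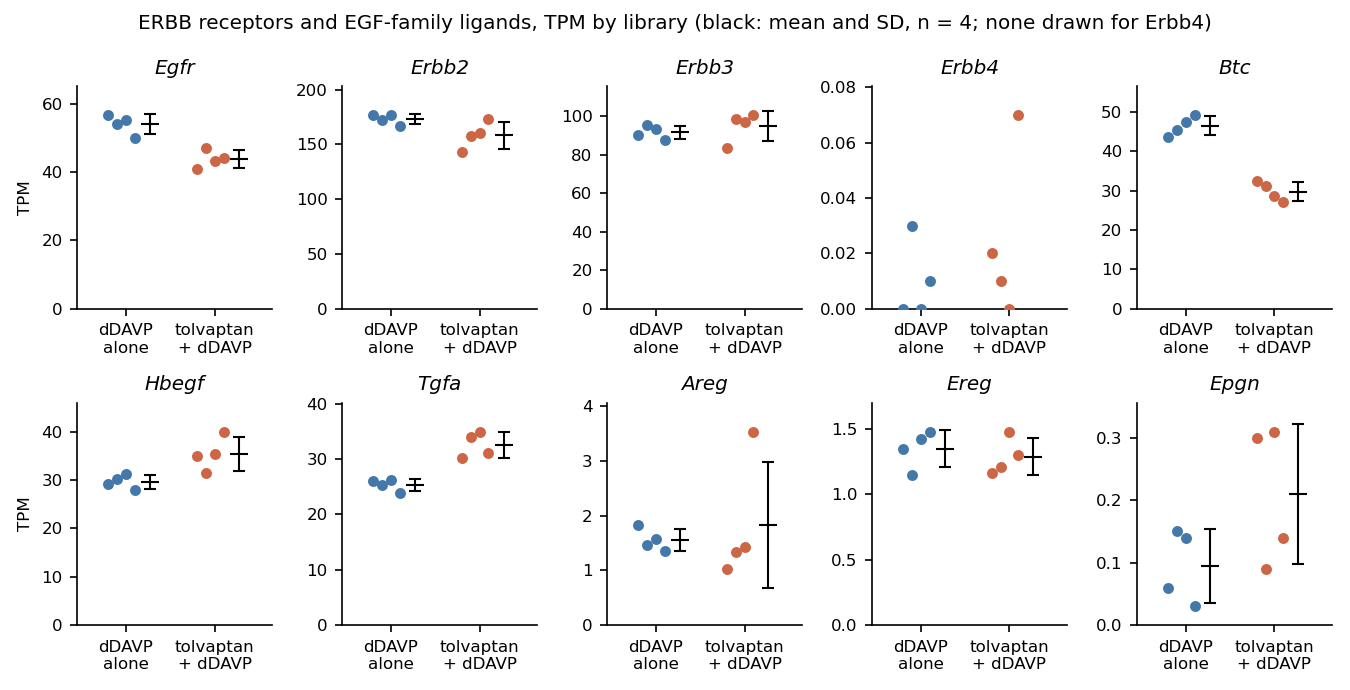
TPM (vertical axes, linear from 0) of the 4 receptors and 6 ligands in each of the 8 libraries. Points are libraries, in order of replicate number, and black marks are the mean and SD of 4 libraries, left out for Erbb4, which is listed at 0 in 3 libraries. Btc and Egfr sit lower and Tgfa and Hbegf higher in all 4 tolvaptan libraries, while the other members overlap.

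Betacellulin, encoded by Btc (ENSMUSG00000082361), is a ligand of both EGFR and ERBB4. Its level was 43.7, 45.3, 47.5 and 49.2 TPM in dDAVP replicates 1 to 4 and 32.3, 31.0, 28.5 and 27.1 TPM in tolvaptan replicates 1 to 4. No tolvaptan library came near the lowest dDAVP library. The mean fell 1.56-fold, from 46.4 ± 2.41 to 29.7 ± 2.39 TPM (SD, n = 4 each), with a log2 fold change of -0.63 (SE 0.07, 95% confidence interval -0.77 to -0.48, limma adjusted p = 0.000156). In 18 alternatives to this fit of genes over 10 TPM the adjusted p stayed between 0.000117 and 0.00419.

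Transforming growth factor alpha, encoded by Tgfa (ENSMUSG00000029999), binds EGFR. It moved the other way, from 26.0, 25.3, 26.1 and 23.8 TPM in dDAVP replicates 1 to 4 to 30.2, 34.0, 34.9 and 31.0 TPM in tolvaptan replicates 1 to 4. The lowest tolvaptan library was above the highest dDAVP library. The mean rose from 25.3 ± 1.07 to 32.5 ± 2.28 TPM (SD, n = 4 each), which on the log2 scale was 0.35 (SE 0.06, 95% confidence interval 0.21 to 0.48, limma adjusted p = 0.00434). The adjusted p ran from 0.00275 to 0.0203 over 18 alternatives to this fit of genes over 10 TPM. With every expressed gene tested, its call was lost without any single dDAVP library and without tolvaptan replicate 2 or 3.

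Heparin-binding EGF-like growth factor, encoded by Hbegf (ENSMUSG00000024486), is a ligand of EGFR and ERBB4 whose membrane-bound precursor also acts on neighbouring cells. It stood at 29.2, 30.2, 31.2 and 27.9 TPM in dDAVP replicates 1 to 4 and at 34.9, 31.5, 35.4 and 40.1 TPM in tolvaptan replicates 1 to 4. Tolvaptan replicate 2 lay only just above dDAVP replicate 3, and tolvaptan replicate 4 was the highest. The mean rose from 29.6 ± 1.44 to 35.5 ± 3.51 TPM (SD, n = 4 each), which on the log2 scale was 0.25 (SE 0.07, 95% confidence interval 0.09 to 0.41, limma adjusted p = 0.043). This was the weakest of the 4 calls. It was lost in 12 of 18 alternatives: without any single dDAVP library, without tolvaptan replicate 1 or 3, with either scaling that centers the libraries, with either filter that keeps low genes, without a variance trend and with replicate number as a block (adjusted p up to 0.15). The log2 fold change itself stayed between 0.19 and 0.30.

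The other ligands were rare. Amphiregulin, encoded by Areg (ENSMUSG00000029378), binds EGFR and stood at 1.83, 1.46, 1.58 and 1.35 TPM in dDAVP replicates 1 to 4 and at 1.02, 1.33, 1.42 and 3.54 TPM in tolvaptan replicates 1 to 4. The groups overlapped, with both the lowest and the highest value under tolvaptan. In the fit of every expressed gene its log2 fold change was 0.07 (95% confidence interval -0.47 to 0.62, limma adjusted p = 0.892), and -0.18 without tolvaptan replicate 4 (limma adjusted p = 0.525). Epiregulin, encoded by Ereg (ENSMUSG00000029377), a ligand of EGFR and ERBB4, ranged from 1.15 to 1.48 TPM with dDAVP alone and from 1.16 to 1.48 TPM with tolvaptan. These ranges were almost the same, and the interval of its log2 fold change was -0.30 to 0.22 (limma adjusted p = 0.875). Epigen, encoded by Epgn (ENSMUSG00000035020), an EGFR ligand, held 0.03 to 0.15 TPM with dDAVP alone and 0.09 to 0.31 TPM with tolvaptan (limma adjusted p = 0.472). On the log2(TPM + 1) scale, changes of genes this low are drawn toward 0.

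Among the receptors, Egfr (ENSMUSG00000020122), the receptor for EGF and for all 6 ligands, fell. Its level was 56.8, 54.3, 55.5 and 50.1 TPM in dDAVP replicates 1 to 4 and 40.9, 47.3, 43.5 and 44.2 TPM in tolvaptan replicates 1 to 4. The groups did not overlap, with dDAVP replicate 4 nearest to the tolvaptan libraries. The mean fell by 18.9%, from 54.2 ± 2.91 to 43.95 ± 2.63 TPM (SD, n = 4 each), which on the log2 scale was -0.30 (SE 0.06, 95% confidence interval -0.43 to -0.17, limma adjusted p = 0.00762). The call held in all 18 alternatives to this fit of genes over 10 TPM (adjusted p 0.00257 to 0.0357). With every expressed gene tested it also passed, nearer the threshold (limma adjusted p = 0.0346). In that fit only 1 member was called lower with robust variance, without dDAVP replicate 1, 2 or 3, and without tolvaptan replicate 1 or 3. Egfr or Btc thus lost its call in these, and both lost it with replicate number as a block.

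Erbb2 (ENSMUSG00000062312), the preferred partner of the other receptors, was the most abundant of the 4. It held 177, 172, 177 and 166 TPM in dDAVP replicates 1 to 4 and 143, 157, 160 and 173 TPM in tolvaptan replicates 1 to 4. Of the tolvaptan libraries, 3 were below every dDAVP library, and replicate 4 lay among them. The log2 fold change was -0.13 (95% confidence interval -0.26 to -0.0015, limma adjusted p = 0.157), which did not pass. Without tolvaptan replicate 4 it was -0.17 and passed (limma adjusted p = 0.0236).

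Erbb3 (ENSMUSG00000018166), a receptor for neuregulins that docks PI3-kinase, held 90.0, 95.3, 93.1 and 87.7 TPM in dDAVP replicates 1 to 4 and 83.3, 98.6, 97.0 and 101 TPM in tolvaptan replicates 1 to 4. The 3 highest values and the lowest were all in tolvaptan libraries. The difference was within the spread (log2 fold change 0.05, 95% confidence interval -0.09 to 0.19, limma adjusted p = 0.635). Erbb4 (ENSMUSG00000062209), a receptor for betacellulin, HB-EGF, epiregulin and the neuregulins, was listed at 0 in 3 libraries and at no more than 0.07 TPM in the other 5. The values were 0, 0.03, 0 and 0.01 TPM in dDAVP replicates 1 to 4 and 0.02, 0.01, 0 and 0.07 TPM in tolvaptan replicates 1 to 4. Levels this low allow no statement on a change (limma adjusted p = 0.675).

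**Figure D2:**
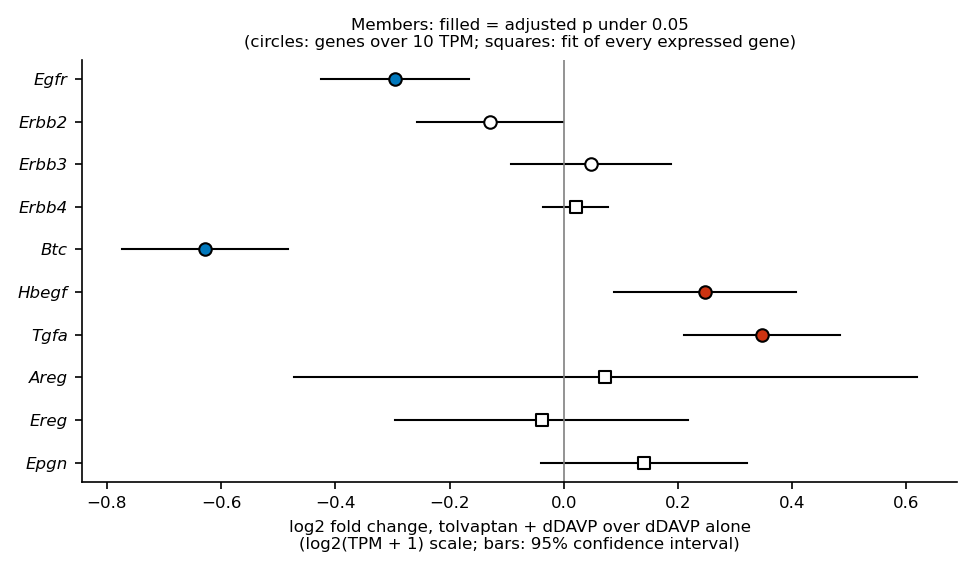
Log2 fold change of each member (horizontal axis, tolvaptan over dDAVP alone on the log2(TPM + 1) scale) with its 95% confidence interval from limma. Circles are the 6 members over 10 TPM and squares the 4 low members from the fit of every expressed gene. Filled symbols passed an adjusted p of 0.05, from -0.63 for Btc to 0.35 for Tgfa.

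The order of the ligands by TPM differed between the groups. With dDAVP alone, Btc was the most abundant ligand in 4 of 4 libraries, followed by Hbegf and then Tgfa, and the ranges of these 3 did not overlap. With tolvaptan, Hbegf led in 3 libraries and Tgfa in 1, Btc led in none, and the ranges of these 3 all overlapped one another. Btc made up 44.5% ± 2.03 of the summed TPM of the 6 ligands with dDAVP alone and 29.5% ± 2.86 with tolvaptan (SD, n = 4 each). The share of Tgfa was 24.3% ± 1.04 with dDAVP alone and 32.2% ± 2.37 with tolvaptan, and that of Hbegf 28.4% ± 1.04 and 35.1% ± 2.90 (SD, n = 4 each). In each of these 3 shares the groups did not overlap, but shares of a common sum depend on each other. The summed TPM of the ligands overlapped between the groups, at 102 to 108 TPM with dDAVP alone and 99.2 to 103 TPM with tolvaptan. In both groups Areg and Ereg had overlapping ranges and lay well below the leading 3, and Epgn was lowest.

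The order of the receptors was Erbb2, Erbb3, Egfr and Erbb4 in every library, with no overlap between neighbours within a group. Of the summed receptor TPM, Erbb2 took 54.3% ± 0.529 with dDAVP alone and 53.3% ± 1.05 with tolvaptan, and these shares overlapped. The share of Egfr was 17.0% ± 0.456 with dDAVP alone and 14.8% ± 0.768 with tolvaptan, and that of Erbb3 28.7% ± 0.734 and 31.9% ± 0.617 (SD, n = 4 each). The groups did not overlap in either of these shares, while the TPM of Erbb3 itself did overlap. Shares of a common sum depend on each other, so that of Erbb3 rises where Egfr and Erbb2 are lower. The summed TPM of the receptors was 304 to 325 TPM with dDAVP alone and 267 to 318 TPM with tolvaptan. These shares describe the transcripts and carry no test.

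**Figure D3:**
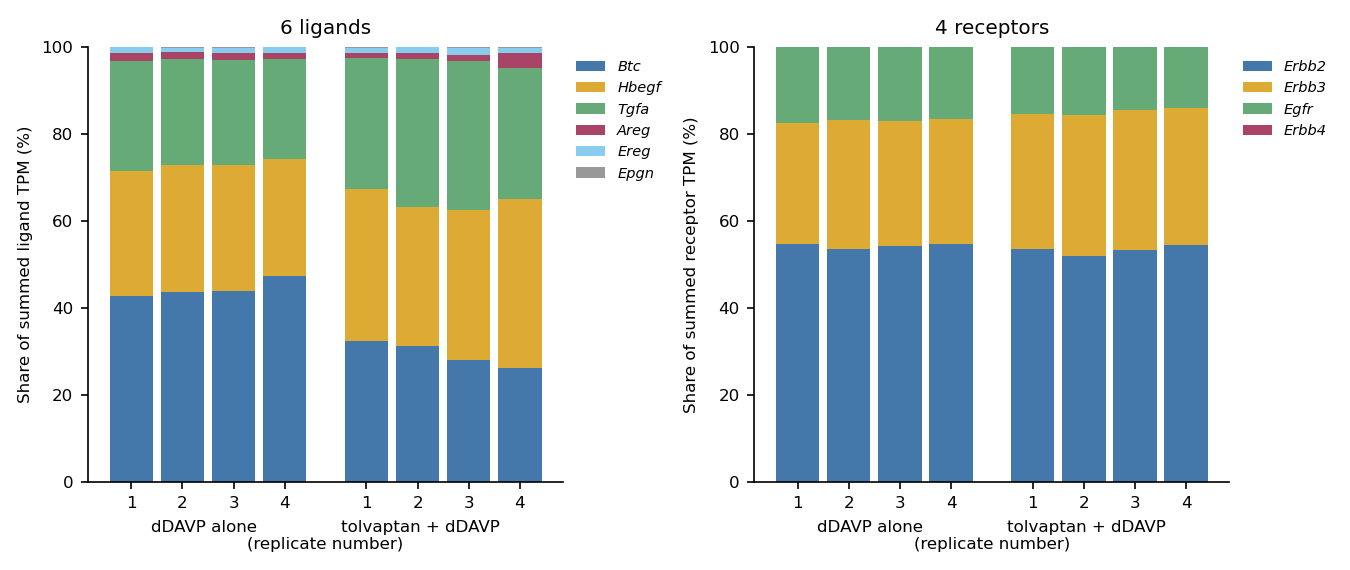
Share of each ligand in the summed TPM of the 6 ligands (left, percent) and of each receptor in that of the 4 receptors (right, percent), 1 bar per library with its replicate number. Btc takes a mean of 44.5% of ligand TPM with dDAVP alone and 29.5% with tolvaptan, while Erbb2 takes more than any other receptor in all 8 libraries.

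Promoter windows are shown for the ligand with the largest fall, Btc, and for the one with the largest rise, Tgfa, since cAMP signaling is known to act through the CREB element TGACGTCA and its core TGACG, and ERK signaling through the AP-1 element TGANTCA. Each window runs from 250 bases before to 50 bases after the start of the gene in RefSeq (GRCm38.p6), 5′ to 3′ on the strand of the gene. Capitals mark a match to a motif on either strand. The Btc window is chr5:91402945-91403244, minus strand, and the Tgfa window is chr6:86194972-86195271, plus strand.
Btc: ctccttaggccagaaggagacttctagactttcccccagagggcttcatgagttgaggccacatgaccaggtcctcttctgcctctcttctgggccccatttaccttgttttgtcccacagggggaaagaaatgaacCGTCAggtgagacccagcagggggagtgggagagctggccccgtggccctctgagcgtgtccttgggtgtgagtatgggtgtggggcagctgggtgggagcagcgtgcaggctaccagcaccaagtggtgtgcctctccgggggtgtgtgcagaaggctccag
Tgfa: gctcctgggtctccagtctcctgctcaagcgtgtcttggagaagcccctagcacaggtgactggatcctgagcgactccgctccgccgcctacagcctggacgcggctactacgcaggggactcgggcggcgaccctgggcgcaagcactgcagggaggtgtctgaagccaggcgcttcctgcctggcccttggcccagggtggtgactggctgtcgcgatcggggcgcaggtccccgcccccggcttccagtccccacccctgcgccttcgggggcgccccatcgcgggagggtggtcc
The Btc window holds 1 TGACG core, on the strand opposite to the gene (read as CGTCA here), which begins 113 bases before the start site. It holds no TGACGTCA and no TGANTCA, and the Tgfa window holds none of the 3 motifs. Of 32851 promoter windows of the same length, 20.8% hold TGACG, 1.79% hold TGACGTCA, which contains TGACG, and 7.81% hold TGANTCA. A core that about this many promoters carry is a description of the sequence only. GC content was 60.3% in the Btc window and 70.7% in the Tgfa window, against a median of 52.7% over all windows. Promoter windows were at hand for 7 of the 10 members.

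The genes Epgn, Ereg, Areg and Btc lie in a row on chromosome 5, with noncoding genes between them. Btc was the only one of them over 10 TPM and the only one that changed. On the far side of Btc, the next protein-coding genes were Parm1, a mucin-like membrane protein gene, and Rchy1, a ubiquitin ligase gene. Parm1 went from 26.6 ± 0.391 to 31.3 ± 0.875 TPM (SD, n = 4 each; limma adjusted p = 0.0208 in the fit of every expressed gene), opposite to Btc. Rchy1 went from 118 ± 2.14 to 99.9 ± 5.77 TPM (SD, n = 4 each; log2 fold change -0.24, limma adjusted p = 0.035). Beyond Rchy1, Odaph held 0.71 TPM or less. On the side of Epgn, Mthfd2l, a folate enzyme gene, ranged from 38.7 to 48.98 TPM with dDAVP alone and from 36.95 to 50.3 TPM with tolvaptan (limma adjusted p = 0.723). The chemokine genes Cxcl1 and Cxcl2 next to it were at or below 3.30 TPM in every library and did not pass (limma adjusted p = 0.616 and 1.0). The neighbouring genes thus moved in both directions or did not pass.

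Among the other 9942 genes over 10 TPM, those with the profile closest to Btc were Slc35a3, a Golgi transporter of UDP-N-acetylglucosamine, Slc25a13, a mitochondrial aspartate-glutamate carrier, and Cystm1, a small membrane protein gene. Likeness was the Euclidean distance over the 8 libraries between log2(TPM + 1) values, each gene set relative to its dDAVP mean. The distances were 0.19, 0.21 and 0.23 log2 units, and the median gene lay at 1.42. Slc35a3 went from 167 ± 2.96 to 105 ± 6.84 TPM (SD, n = 4 each), which on the log2 scale was -0.66. Closest to Tgfa were Sh3d19, an adaptor that binds ADAM proteases, and Epb41l2, a membrane skeleton protein gene, at 0.07 and 0.08 log2 units, followed by the gene model Gm49338 at 0.12 (median gene 0.70). Sh3d19 went from 28.1 ± 1.5 to 36.6 ± 1.99 TPM (SD, n = 4 each), which on the log2 scale was 0.37. Such distances follow from the size of the change and the level of noise, and they do not show a shared control.

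The rest of the pathway was read from lists of ligands, shedding factors, adaptors, inhibitors, sorting proteins and ERK-induced genes. Of the 5 other ligands of the family, Nrg1, a neuregulin that binds ERBB3 and ERBB4, was the only one over 10 TPM. It ranged from 6.85 to 9.97 TPM with dDAVP alone and from 10.4 to 12.4 TPM with tolvaptan, so it met the filter of 10 TPM only through the group where it was high. In the fit of every expressed gene it did not pass (log2 fold change 0.42, limma adjusted p = 0.113). Its adjusted p among genes over 10 TPM was 0.0451, and the call there was lost in 11 of 17 alternatives, among them the fits without dDAVP replicate 1, 2 or 3 or tolvaptan replicate 1, 2 or 3 (adjusted p up to 0.126). Egf itself was low, at 1.02 to 1.63 TPM with dDAVP alone and 1.11 to 1.78 TPM with tolvaptan.

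Of 20 genes for ligand shedding and transport, 16 were over 10 TPM, and of these 2 fell and 2 rose. The median log2 fold change of the 16 was 0.02. Among all genes over 10 TPM it was 0.05, with 6.10% called lower and 10% called higher. The largest change was in Tspan33, a tetraspanin that binds the protease ADAM10, which is known to shed betacellulin. Tspan33 held 449, 453, 448 and 414 TPM in dDAVP replicates 1 to 4 and 214, 219, 230 and 257 TPM in tolvaptan replicates 1 to 4, so the groups lay far apart. Its log2 fold change was -0.94 (SE 0.06, limma adjusted p = 5.29e-06). The related tetraspanins Tspan14 and Tspan5, also partners of ADAM10, had smaller log2 fold changes of -0.16 and 0.20 (limma adjusted p = 0.0194 and 0.024), and each lost its call in some fits without 1 library (dDAVP replicate 2 or 3 or tolvaptan replicate 2 for Tspan14, and dDAVP replicate 1, 2 or 4 or tolvaptan replicate 2 or 3 for Tspan5). Adam15, a membrane protease, rose from 62.6 ± 7.61 to 84.4 ± 6.79 TPM (SD, n = 4 each; limma adjusted p = 0.00929). The main sheddases did not pass: Adam10 had a log2 fold change of 0.05 (95% confidence interval -0.15 to 0.25) and Adam17, which sheds TGF-alpha and HB-EGF, one of -0.03 (95% confidence interval -0.18 to 0.12).

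Of 30 adaptors and proximal effectors, 23 were over 10 TPM, and of these 2 fell and 4 rose (median log2 fold change 0.04). The shares over all genes tested were 6.10% lower and 10% higher (median 0.05). Plcg1, a phospholipase C that EGFR recruits, rose from 54.6 ± 1.76 to 67.1 ± 3.64 TPM (SD, n = 4 each; log2 fold change 0.29, limma adjusted p = 0.00411), and held in all 18 alternatives. The PI3-kinase regulatory subunit Pik3r3 fell by 0.36 on the log2 scale and the catalytic subunit Pik3ca rose by 0.20 (limma adjusted p = 0.0158 and 0.0289). Vav2, a guanine nucleotide exchange factor that receptor kinases phosphorylate, rose by 0.33 (limma adjusted p = 0.0259). Fits without 1 library lost the call of Pik3r3 in 2 of 8, of Pik3ca in 5 of 8 and of Vav2 in 5 of 8 (adjusted p up to 0.0536, 0.0887 and 0.0789). With the libraries set to a common median, Pik3ca did not pass either (limma adjusted p = 0.0754). Grb7, an adaptor that binds ERBB2, was among the most abundant of the list at 364 ± 10.8 TPM with dDAVP alone and 352 ± 21.7 TPM with tolvaptan (SD, n = 4 each), and did not pass (limma adjusted p = 0.558).

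Of 20 receptor inhibitors and phosphatases, 17 were over 10 TPM, and of these none fell and 1 rose (median log2 fold change -0.04). It was Cblb, a ubiquitin ligase of receptor kinases (log2 fold change 0.25, limma adjusted p = 0.0422), which lost its call in 10 of 18 alternatives, 5 of them fits without 1 library (dDAVP replicate 2, 3 or 4 or tolvaptan replicate 2 or 3). The largest change among the 17 was lower, in Grb14, from a mean of 9.62 to 6.465 TPM. Its log2 fold change of -0.51 narrowly missed the threshold (limma adjusted p = 0.0509, and 0.131 with every expressed gene tested). Grb14 met the filter of 10 TPM only through the dDAVP libraries. The paper, with its own criteria, lists it among the transcripts lowered by tolvaptan. Errfi1, the feedback inhibitor that binds the EGFR kinase and that ERK induces, had a log2 fold change of -0.05 (95% confidence interval -0.17 to 0.07, limma adjusted p = 0.579). Of 18 endocytosis and sorting genes, all were over 10 TPM, 2 fell and none rose. For both lists the shares over all genes tested were 6.10% lower and 10% higher. Vps28, a subunit of ESCRT-I, fell from 477 ± 11.6 to 404 ± 5.16 TPM (SD, n = 4 each; log2 fold change -0.24, limma adjusted p = 0.00145). Cd2ap, an adaptor that binds CBL proteins, fell by 0.25 on the log2 scale (limma adjusted p = 0.0117).

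Of 16 genes known as outputs of ERK, 11 were over 10 TPM, and of these 2 fell and 1 rose (median log2 fold change 0.11). Over all genes tested 6.10% fell and 10% rose (median 0.05). Ier3, an early response gene, fell from 74.9 ± 3.58 to 29.6 ± 2.65 TPM (SD, n = 4 each; log2 fold change -1.31, limma adjusted p = 1.26e-06). Dusp6, the phosphatase that inactivates ERK, fell by 0.26 on the log2 scale (limma adjusted p = 0.0225), and lost the call without dDAVP replicate 1, 2 or 4. The gene counted as rising was Ccnd1, cyclin D1, at 7.03 to 9.05 TPM with dDAVP alone and 9.94 to 12.3 TPM with tolvaptan, which met the filter of 10 TPM only through the tolvaptan libraries. Its log2 fold change of 0.38 had a limma adjusted p of 0.0405 among genes over 10 TPM and did not pass in the fit of every expressed gene (limma adjusted p = 0.0792). The first call was lost in 11 of 17 alternatives, including the fits without any single dDAVP library or without tolvaptan replicate 2 or 3. Egr1 had a log2 fold change of 0.06 (limma adjusted p = 0.405). In the fit of every expressed gene, 2 shedding genes, 2 sorting genes and 1 ERK output gene fell and 1 adaptor rose, and no other gene of these lists passed. Of all expressed genes, 2.31% passed there, 1.06% lower and 1.25% higher. Across the lists most genes did not pass, as was so for all genes tested.

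**Figure D4:**
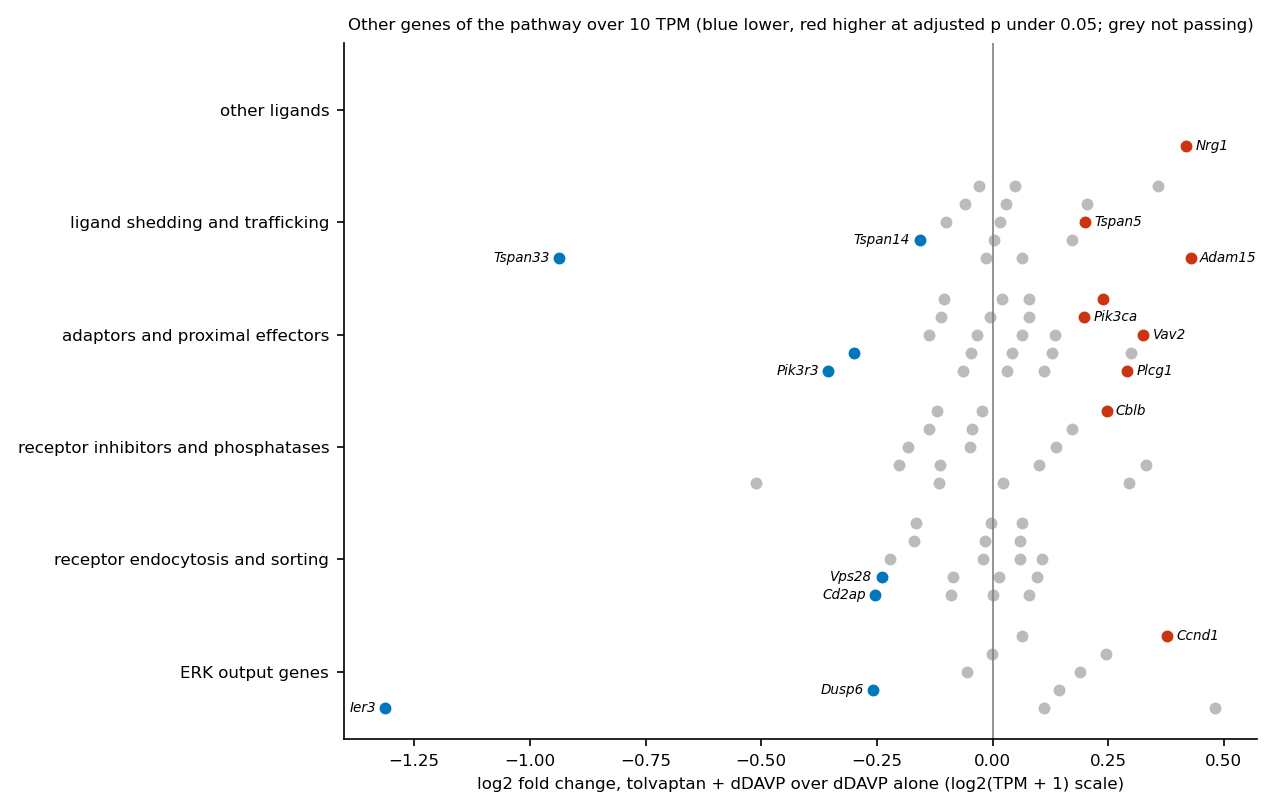
Log2 fold change (horizontal axis, log2(TPM + 1) scale) of the other pathway genes over 10 TPM, 1 row of points per list, with points spread vertically only for legibility. Blue points fell and red points rose at an adjusted p under 0.05, and grey points did not pass. Ier3 (-1.31) and Tspan33 (-0.94) lie farthest from 0.

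**Figure D5:**
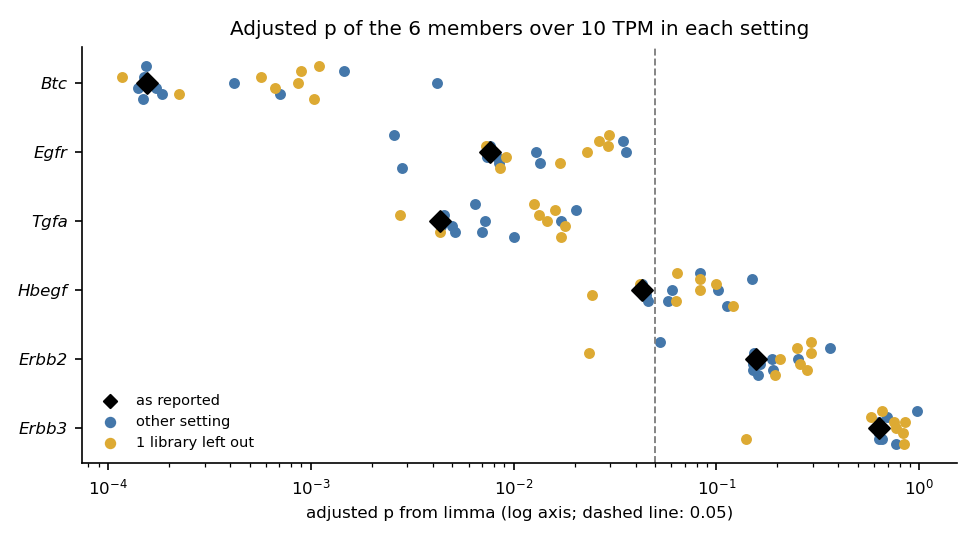
Adjusted p from limma (log axis) of the 6 members over 10 TPM as reported (diamonds), in 10 other settings (blue) and in the 8 fits without 1 library (yellow). All start from the fit of genes over 10 TPM. Btc, Egfr and Tgfa stay left of the dashed line at 0.05 throughout, Hbegf crosses it in 12 of 18 alternatives, and Erbb2 passes in 1.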

How the data were processed

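RNA was sequenced from 4 tolvaptan and 4 dDAVP libraries (full-length cDNA, tagmented, paired-end). The authors mapped the reads with STAR (mouse, Ensembl release 106) and used RSEM for TPM, their versions being not given in the sources used here. The deposited table holds 1 TPM value per gene and library, so depth is unknown and no counting interval is given. The count-based test of the study could not be repeated on TPM. Column names carry the treatment and replicate number of each sample.

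Values were analysed as log2(TPM + 1) with limma 3.58.1 in R 4.3.3 (unpaired, variance trend, 2-sided, Benjamini-Hochberg). A call is an adjusted p under 0.05. The fit was run on simulated data with independent normal noise and no shift between libraries. That run says nothing about the effects of scaling or of single libraries. Members, gene lists and tests were chosen with earlier results of these data known. The named genes are all members and, from each pathway list, all called genes if 5 or fewer, otherwise the 4 with the smallest p. Adam10, Adam17, Egf, Grb7, Errfi1 and Egr1 were added for their roles after their values were seen. Grb14 was added for the size of its change. RefSeq (GRCm38.p6), another build than the authors', gave gene order and promoter sequences only. Alternatives were pseudocounts, filters, scalings, variance models, a replicate block and leaving out each library.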

Additional observations from a re-analysis of the deposited data

Results flagged for a closer look

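Areg in tolvaptan replicate 4, at 3.54 TPM, stood far from the other tolvaptan libraries, which held 1.02 to 1.42 TPM. The gap took up 0.841 of the range of the group, above the limit used for 4 samples. Chance flags about 1 in 20 groups, and 20 groups (10 members in 2 conditions) were examined, of which this was the only one. The same library had the highest Hbegf (40.1 TPM) and the lowest Btc (27.1 TPM) of its group, neither of them beyond the limit. Whether this library differs in preparation was not tested.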

How the results depend on the processing

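Of the 10 members, Btc, Egfr and Tgfa kept their direction and their call in all 18 alternatives to the fit of genes over 10 TPM. The number of members called among genes over 10 TPM was 4 and ran from 3 to 5, with 3 to 5 in the fits without 1 library. With every expressed gene tested it was 3, with replicate number as a block 0, and without 1 library 1 to 3. In that fit no member was called higher with a common median, without any single dDAVP library, or without tolvaptan replicate 2 or 3. Tgfa thus lost its call in these. Only 1 member was called lower with robust variance, and without dDAVP replicate 1, 2 or 3 or tolvaptan replicate 1 or 3. Btc or Egfr thus lost its call in each of them. The cause of the drop to 0 with a block was not tested. The labels do not say whether same-numbered libraries were handled together. Deviations of same-numbered libraries from their group means had correlations of -0.049, -0.051, -0.073 and -0.0046 over the genes over 10 TPM. Such correlations cannot show whether the samples were paired. With a block, 3 members over 10 TPM were called. The sign of members that never passed turned in 4 cases: Erbb4 had a log2 fold change of -0.048 with a common median and -0.0053 after quantile normalization, and Areg had -0.050 after quantile normalization and -0.18 without tolvaptan replicate 4 (range without 1 library -0.18 to 0.21). Hbegf had an adjusted p of 0.0831 with a common median and 0.113 after quantile normalization. Over all genes over 10 TPM, 607 fell and 994 rose, and 396 and 515 with the block. Since depth is unknown, differences in Erbb4, Epgn, Areg and Ereg cannot be judged against counting error.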

Other observations

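Of the 85 other pathway genes over 10 TPM, 25 had groups that did not overlap, against 23.1% of all genes over 10 TPM, and 8 of these missed the adjusted threshold, 6 higher and 2 lower with tolvaptan. They were gathered after the values were seen. Over all genes over 10 TPM, 2300 had groups apart while 1601 were called, so such misses are common. The split by direction among those misses was not computed, and the 8 are no result about the pathway. The lower ones were Snx2, a sorting nexin (135 ± 3.63 TPM with dDAVP alone and 120 ± 8.60 TPM with tolvaptan, SD, n = 4 each, limma adjusted p = 0.0637), and Tmed10, a cargo receptor of the early secretory pathway (limma adjusted p = 0.299). The higher ones were Ptpn11, Gab1, Spred2, Fosl1, Snx1 and Crkl, with limma adjusted p from 0.079 to 0.244. Ptpn11, the phosphatase SHP2 that links receptor kinases to RAS, stood at 21.5 ± 2.73 TPM with dDAVP alone and 26.7 ± 2.98 TPM with tolvaptan (SD, n = 4 each). Fosl1, an AP-1 subunit, ranged from 7.76 to 10.6 TPM with dDAVP alone. In tolvaptan replicates 1 to 4 it held 11.2, 10.61, 10.9 and 19.9 TPM. Its groups were thus barely apart, and replicate 4, the library flagged for Areg, alone gave the high end.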
